A study of Caenorhabditis elegans with 4 samples.

Results

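The regions described here are the peaks called for HIM-5 on chromosome V of Caenorhabditis elegans. They were taken as every row of the series-level peak list that carried the chromosome name V, which gave 456 of the 2193 peaks in the list and of the 2191 on its 6 nuclear chromosomes. The peaks came from chromatin immunoprecipitation followed by sequencing (ChIP-seq), which enriches and reads the DNA bound by a protein, with a polyclonal antibody against HIM-5 that was raised in rabbit and affinity purified. The worms were hermaphrodites of the strain fem-2(b245), with the mutation on chromosome III, kept at 20 °C, and every sample carried this genotype. Their stage is labelled as young adult with a germ line, while the growth protocol in the labels describes gravid adults collected by sucrose flotation. The 4 samples were 2 ChIP replicates and 2 input DNA samples. Each ChIP replicate had its own peak list, with 226 peaks on chromosome V in replicate 1 and 250 in replicate 2 (mean 238 ± 17.0, SD, n = 2). Inputs were not analysed here, and the read depth behind the lists is unknown. All material came from whole worms, so peaks of germ line and body cells cannot be told apart.

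HIM-5 is a protein of the meiotic germ line that promotes the double-strand breaks from which crossovers form, and worms without it lose crossovers mainly on the X chromosome. The him-5 gene itself lies on chromosome V. C. elegans chromosomes have no single centromere, and each autosome is divided into a gene-dense centre with few crossovers and arms where most crossovers fall. Each chromosome also has a pairing centre, a region near an end bound by a zinc finger protein, which on chromosome V is ZIM-2. Chromosome V is known for large families of chemoreceptor genes, for the tandem array of 5S ribosomal RNA and SL1 leader genes, and for histone gene clusters. The coordinates below are those of WormBase WS220 (1-based), and with no gene annotation of that build at hand, no peak is assigned to any gene.

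Chromosome V held its share of the series list by length. Its peaks made up 20.8% of nuclear series peaks (exact 95% interval 19.1% to 22.6%), and its span was 20.9% of the nuclear span, each span being taken up to the end of the last peak called on that chromosome. In the replicate lists it held more, 25.03% of replicate 1 peaks and 24.7% of replicate 2 peaks (mean 24.8% ± 0.264, SD, n = 2). The density was 21.8 peaks per Mb in the series list (exact Poisson 95% interval 19.8 to 23.9), 10.8 in replicate 1 and 11.9 in replicate 2. In base pairs, series peaks covered 263 kb of the chromosome (1.25%), which was 22.9% of all that the nuclear series peaks covered. Replicate 1 peaks covered 149 kb and replicate 2 peaks 184 kb. Intervals here cover counting error only and take each peak as a separate event, although close neighbours are not. No test was made over the 2 replicates, so the comparisons along the chromosome and between chromosomes are descriptions without a p-value.

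The central segment of the chromosome held more peaks per Mb than either outer segment, although the density did not change evenly along the chromosome. The chromosome was cut into 3 segments of equal length, which do not follow the borders between its gene-dense centre and its arms. The central segment, from 6974727 to 13949453, held 203 of the 456 peaks (44.5%, exact 95% interval 39.9% to 49.2%). The left segment held 127 (27.9%) and the right segment 126 (27.6%), so the outer segments were nearly equal. The density was 29.1 peaks per Mb in the central segment (exact Poisson 95% interval 25.2 to 33.4), 18.2 in the left one (15.2 to 21.7) and 18.1 in the right one (15.05 to 21.5). The central segment was thus 1.60 times as dense as the outer ones together (exact interval 1.33 to 1.94). Replicate 2 gave 117 peaks in the central segment, 72 in the left and 61 in the right, a ratio of 1.76 (1.36 to 2.27). Replicate 1 gave 90, 65 and 71, a ratio of 1.32 (1.00 to 1.74). All 3 lists placed the most peaks in the middle, and the replicates differed in how strongly (mean ratio 1.54 ± 0.308, SD, n = 2). Without the block from 8 to 9 Mb, chosen because the replicates differed there, the ratios were 1.53 in replicate 1 and 1.67 in replicate 2. Among the series peaks met by both replicate lists the ratio was 2.18 (1.49 to 3.17). The central ones among them included all peaks of a run of 11 and a run of 6 close neighbours. Neighbouring peaks there shared replicate scores, so these are not 11 and 6 separate matches. On the other 5 chromosomes the same ratio in the series list was lowest on chromosome I (0.972) and highest on chromosome II (1.67), and the difference from chromosome V was not tested.

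Blocks of 1 Mb show the shape in more detail. The 21 blocks of chromosome V held from 7 to 44 series peaks, with a median of 21. Those with the most peaks began at 6 Mb and at 10 Mb, with 44 peaks each, and at 9 Mb, with 40. The fewest were in the first block (7 peaks), in the block from 19 Mb (9 peaks) and in those from 4 Mb and 16 Mb (10 peaks each). The 6 Mb block lies almost wholly in the left segment, next to the central one, and all its series peaks were counted to the left. It held 21 replicate 1 peaks and 13 replicate 2 peaks. Of its 44 series peaks, 5 were met by both lists and 24 by neither, and groups of 13 and 12 close neighbours were among the 44. Over all nuclear series peaks, 22.4% were met by both lists and 48.8% by neither. In the 9 Mb block replicate 1 had 23 peaks and replicate 2 had 20, and 18 of its 40 series peaks were met by both lists. Of those 18, 11 formed a group of close neighbours from 9428600 to 9434786. Several of the 11 shared a replicate score, so they are not 11 separate matches.

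**Figure D1:**
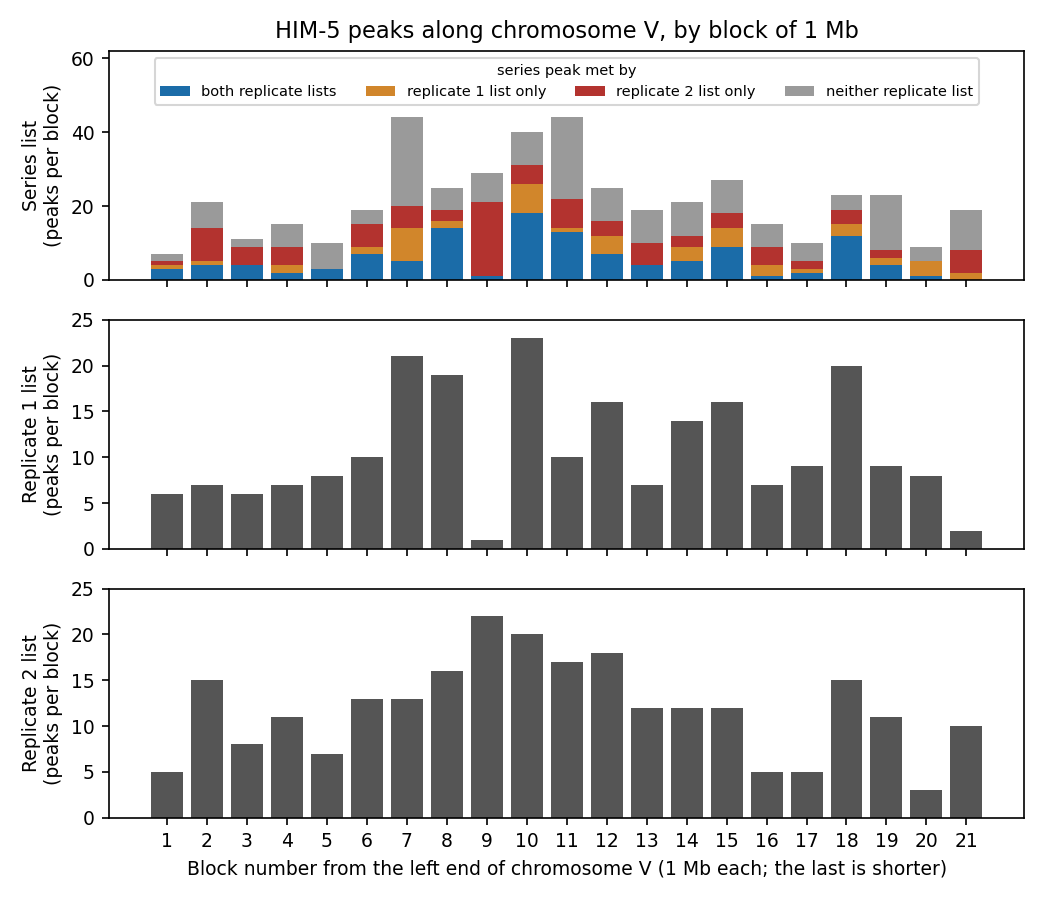
Number of peaks (vertical axes) in each of the 21 blocks of 1 Mb along chromosome V (horizontal axis), for the series list, with peaks coloured by which replicate lists meet them, and for each replicate list. The tallest series bars, of 44, 40 and 44 peaks, stand at blocks 7, 10 and 11, and block 9 holds 1 replicate 1 peak against 22 replicate 2 peaks.

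The replicate lists parted most in the block from 8 to 9 Mb. Replicate 1 listed 1 peak there, from 8606331 to 8606650 with a score of 99.2, and replicate 2 listed 22. The block held 29 series peaks, of which 1 was met by both lists, 20 by replicate 2 only, 8 by neither and 0 by replicate 1 only. The difference of 21 peaks was the largest excess of replicate 2 over replicate 1 in the 100 blocks of the nuclear chromosomes. Elsewhere on chromosome V the block differences ran from 8 more replicate 1 peaks to 8 more replicate 2 peaks, and on the other chromosomes from 26 more replicate 1 peaks to 14 more replicate 2 peaks.

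Within that block the 7 peaks with a series score of 50 or more formed a pair of tight groups of narrow peaks. This set and its cutoff were chosen after the values were seen. The first group lay from 8847525 to 8853737 and held 3 of them, with series scores of 67.8, 97.2 and 99.3. The second lay from 8889478 to 8898305 and held 4, with series scores of 56.4, 92.97, 95.3 and 74.7. Each was 464 to 690 bp wide. From one midpoint to the next the steps were 2436 and 3171 bp in the first group and 2552, 3177 and 2522 bp in the second, so steps of about the same sizes recurred in both. A further pair of narrow peaks in the block, from 8532915 to 8533514 and from 8534929 to 8535421, fell below the cutoff, with series scores of 34.2 and 42.9 (ranks 27 and 19). They too were met by replicate 2 only, which scored them 783 and 683. Replicate 2 scored the 7 higher ones from 979 to 1390, and replicate 1 listed no peak at any of the 7. They took ranks 5, 6, 7, 8, 11, 12 and 16 among the 456 peaks of the chromosome. Among the 50 highest series scores of all nuclear chromosomes, 43 peaks were met by both replicate lists and 7 by replicate 2 only, and those 7 are this set. Narrow peaks met by replicate 2 only also stood outside the block. One, from 16040340 to 16040895, was 556 bp wide, with a series score of 48.75 (rank 18) and a replicate 2 score of 643. Library depth and background in replicate 1 at these sites are unknown, and their part in the difference was not tested.

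Replicate support for the peaks of chromosome V was as follows. Of the 456 series peaks, 119 overlapped a peak of both replicate lists by at least 1 bp (26.1%, exact 95% interval 22.1% to 30.4%), against 22.4% of all nuclear series peaks. Another 104 met replicate 2 only (22.8%, 19.03% to 26.9%; 17.7% of all nuclear peaks) and 55 met replicate 1 only (12.1%, 9.22% to 15.4%; 11.1%). The other 178 met neither list (39.04%, 34.5% to 43.7%; 48.8%). On the other 5 chromosomes the share in neither list ran from 43.9% to 55.3%, and the share in both from 18.3% to 25.7%. Chromosome V therefore had the highest share in both lists and the lowest in neither among the 6, but the interval of its share in both lists took in the shares of chromosomes I and X, and no test was made. The series list is not stated to come from reads other than those of these replicates, so its agreement with them is not independent.

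The replicate lists were also compared with each other on the chromosome. Of the 226 replicate 1 peaks, 139 overlapped a replicate 2 peak (61.5%, exact 95% interval 54.8% to 67.9%; 59.8% over all nuclear chromosomes). Of the 250 replicate 2 peaks, 125 overlapped a replicate 1 peak (50%, 43.6% to 56.4%; 49.8%). Both shares lay near those of the whole lists. Without the block from 8 to 9 Mb they were 61.3% and 54.4%. Replicate 1 peaks that met replicate 2 had a median score of 184 and the rest 80.2. The corresponding medians of replicate 2 were 178 and 115. The series list met 198 of the replicate 1 peaks (87.6%; 87.6% over all chromosomes) and 228 of the replicate 2 peaks (91.2%; 90.6%). Most series peaks met by a replicate list met just 1 of its peaks: 140 of 174 for replicate 1 and 186 of 223 for replicate 2. The other 34 met up to 6 replicate 1 peaks each, and the other 37 up to 4 replicate 2 peaks each.

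**Figure D2:**
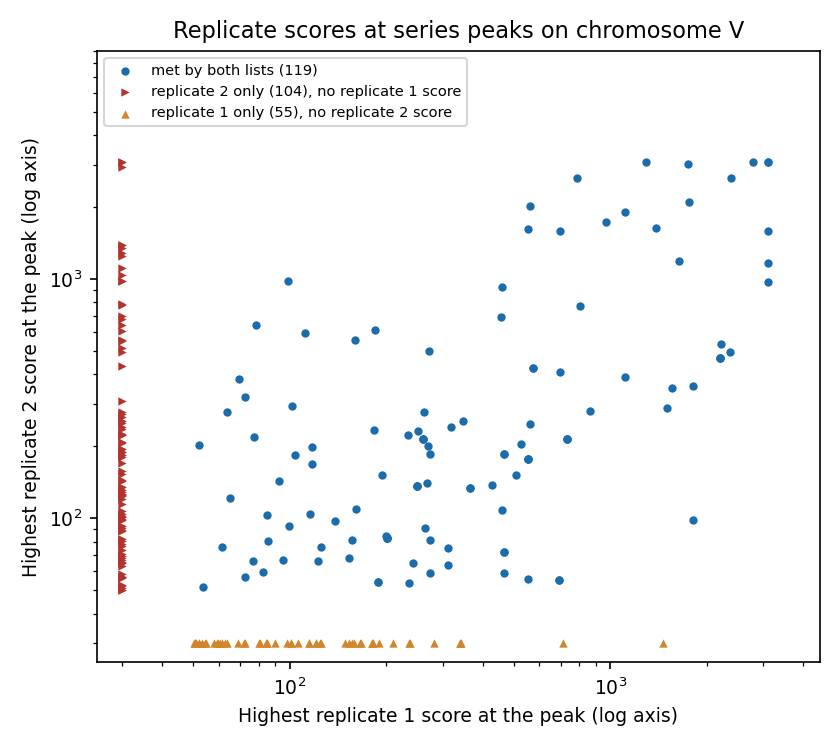
Highest score of the overlapping replicate 1 peak (horizontal log axis) and replicate 2 peak (vertical log axis) at each series peak on chromosome V. Circles are the 119 peaks met by both lists, and triangles along the left and lower edges, set at an arbitrary position, are the 104 met by replicate 2 only and the 55 met by replicate 1 only, including replicate 2 scores up to 3100 where no replicate 1 peak overlapped the series peak.

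Where both lists met a series peak, the replicate scores were loosely related. Spearman's rho between the highest replicate 1 and replicate 2 scores was 0.529 over these 119 peaks, given as a description, since neighbouring series peaks can share 1 replicate peak. Scores reached 3100 or more at 5 replicate 1 peaks and 4 replicate 2 peaks of the chromosome, with highest values of 3102 and exactly 3100. All of them except the 3102 were exactly 3100, so peaks tied at that value cannot be ranked. Whether 3100 is a limit of the scale is not stated. The replicate 1 peak of 3102 spanned 265001 to 267317, where replicate 2 scored 971. The highest replicate 2 score at a place where replicate 1 listed nothing was 2943, for the replicate 2 peak at 17724682 to 17727210, 2529 bp wide. Its series peak had a score of 25.2 and rank 45 on the chromosome. Among series peaks met by replicate 1 only, the highest replicate 1 score was 1463, at the series peak from 15566746 to 15568273, whose series score of 22.3 was also the highest of that class. Both of these sites were named after their values were seen.

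Chromosome V supplied many of the strongest series peaks, in part through peaks that only replicate 2 listed. It held 17 of the 50 highest series scores (34%) and 33 of the 100 highest (33%), against its 20.9% of the span. Of those 17, 10 were met by both replicate lists, and the other 7 are the narrow peaks of the block from 8 Mb. Counting only top 50 peaks met by both lists, chromosome V held 10 of 43, close to its 24.2% of all series peaks met by both lists. Of its 33 among the top 100, 22 were met by both lists, out of 84 such peaks on all chromosomes. The other 11 were met by replicate 2 only, and 9 of them lay in that block. The score is the authors' own value for a peak, and its scale is not stated. It is therefore ranked and compared only within a list, and replicate scores printed side by side are on no known common scale.

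The strongest peak by score, at 172.8, lay from 13907378 to 13910535, at the right edge of the central segment. Both replicates scored it 3100. The second, from 9546710 to 9547424, had a score of 165.6 in only 715 bp, with 1110 in replicate 1 and 1913 in replicate 2. Next came the peak from 2730102 to 2731159, which scored 122.2, with 1293 and 3100 in the replicates. Together with 1 further series peak beside it, it stood between gaps of 399 and 366 kb. The fourth, from 723864 to 728250, scored 101.2 over 4387 bp, and both replicates gave 3100. Ranks 5 to 8 were the 4 series peaks met by replicate 2 only. After them came 7415904 to 7416936 with a score of 79 (1390 and 1628 in the replicates) and 12551795 to 12553339 with 78.1 (2372 and 2642). All but 2 of these 10 peaks lay in the central segment, which held 44.5% of the series peaks of the chromosome. Those at ranks 5 to 8 stood close together in the block from 8 Mb. Of the 50 highest series scores of the chromosome, 25 lay in the central segment.

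Scores fell off steeply below these peaks. The median series score on chromosome V was 6.08, with quartiles of 3.96 and 11.4, and 17 peaks reached 50. Ranks 1 to 50 ended at a score of 22.3, and 34 of those peaks were met by both lists, 15 by replicate 2 only, 1 by replicate 1 only and 0 by neither. Ranks 51 to 100 were similar, with 32 in both and 0 in neither. Support then dropped: of ranks 101 to 200, 32 were in both and 22 in neither, and of ranks 201 to 300, 6 were in both and 53 in neither. Among the 156 lowest-ranked peaks 15 were in both (9.62%) and 103 in neither. Median width fell as well, from 1139 bp at ranks 1 to 50 to 208 bp among those 156. A wide peak meets the 1 bp rule more easily, and the part of width in the drop was not tested. The median score was 14.2 for the 119 peaks in both lists and 5.20 for the other 337, a difference of 9. The 5 highest-scoring peaks that neither replicate list met had scores of 8.83 to 9.95 and ranks of 133 to 148. A pair of them, from 9516071 to 9516291 and from 9517213 to 9517672, belonged to a group of 5 neighbouring series peaks, none of which any replicate list met.

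**Figure D3:**
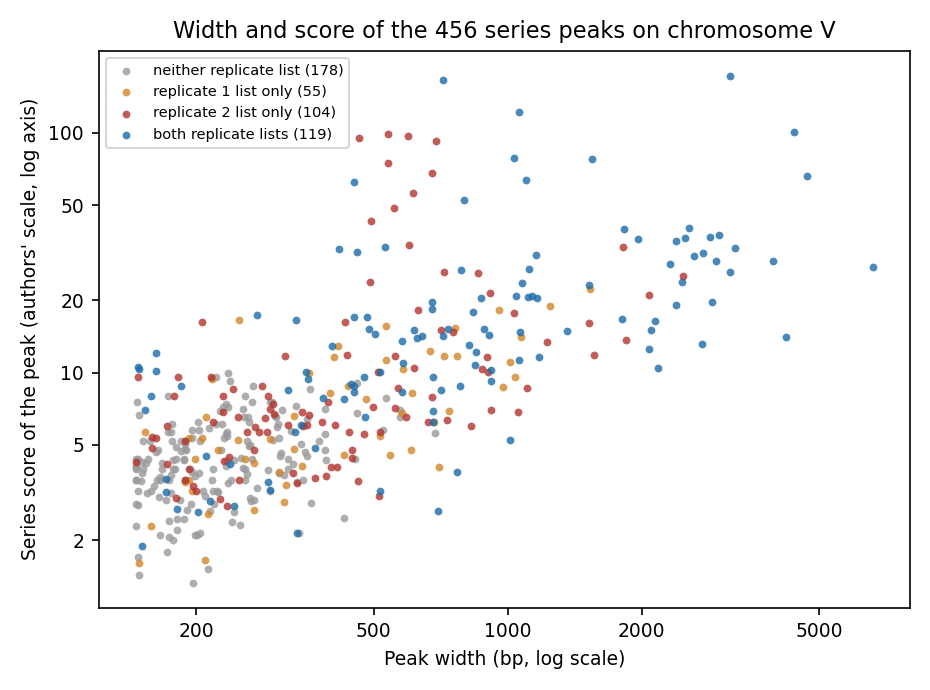
Series score (vertical log axis, authors' scale) against width in bp (horizontal log axis) for the 456 series peaks on chromosome V, coloured by which replicate lists meet them. Peaks met by neither list sit at the lower left, none above a score of 9.95. The narrow high-scoring red points are series peaks met by replicate 2 only, with series scores of 56.4 to 99.3 and widths of 464 to 690 bp.

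Most peaks were narrow, and a few wide ones carried much of the covered sequence. The median width was 314.5 bp (quartiles 203 and 612), from 146 to 6613 bp, and 217 peaks were under 300 bp wide. In replicate 1 the median was 293 bp and in replicate 2 it was 429 bp (mean 361 ± 96.2, SD, n = 2). The 69 widest series peaks held 50% of the covered base pairs. Of the 27 peaks of 2000 bp or more, 25 were met by both replicate lists, against 19 of the 217 under 300 bp, although a wide peak meets the 1 bp rule more easily. Median widths were 715 bp in both lists, 399 bp in replicate 1 only, 412 bp in replicate 2 only and 218 bp in neither. Wider peaks tended to have higher scores (Spearman's rho 0.6997 over 456 peaks, a description of values from 1 list). The peak in both lists with the largest width, from 17119960 to 17126572, had a score of only 27.7 (rank 39).

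The 5 widest peaks were all met by both replicate lists. Besides the one just named, they were 9339806 to 9344502 (4697 bp, score 66.2), the rank 4 peak from 723864, 7919681 to 7923896 (4216 bp, score 14.1) and 17128169 to 17132104 (3936 bp, score 29.1). The first and the last of the 5 belong to 1 site: a group of 4 neighbouring peaks from 17115424 to 17132104 that covered 73.5% of 16.7 kb. All 4 were met by both lists. In replicate 1 the 2 wide ones scored 3100, and in replicate 2 they scored 1592 and 1166. By span it was the longest group with gaps under 2 kb among those of 4 or more peaks on the chromosome.

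Peaks were spaced in a strongly uneven way, close together within groups and far apart between them. The median gap between the end of a series peak and the start of the next was 1698 bp, while the upper quartile was 60480 bp. Of 455 gaps, 233 were under 2 kb (51.2%), 155 under 500 bp, and 77 were 100 kb or more. The median gap was 2047 bp in replicate 1 and 2729 bp in replicate 2. Joining neighbours with gaps under 2 kb left 223 separate groups, of which 125 were single peaks and 71 were pairs or triplets. On the other chromosomes the median gap of series peaks ran from 1211 bp on X to 15898 bp on chromosome I.

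The 5 widest stretches without a series peak all lay outside the central segment. The longest ran from 19522710 to 20088163 in the right segment (565 kb), and each replicate list had 1 peak inside it. Next came 267290 to 723863 (457 kb), with 2 replicate 1 peaks inside, and 2330883 to 2730101 (399 kb), with 1 peak of each replicate. From 15666875 to 16040339 (373 kb) and from 731625 to 1104562 (373 kb) no list had a peak. The strong peak at 723864 thus had a wide gap on either side of its group.

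Runs of 6 or more series peaks with gaps under 2 kb made up 94 of the 456 peaks (20.6%, exact 95% interval 16.99% to 24.6%), against 18.9% of all nuclear series peaks. There were 12 such runs, from 2.33 to 12.3 kb long, with 3 in the left segment, 4 in the central one and 5 in the right one. Few strong peaks lay in them: 4 of the 50 highest scores of the chromosome. Replicate 1 alone gave a run share of 20.4% and replicate 2 alone 12.4%. In the higher-scoring 50% of series peaks no run of this length was left, but leaving out peaks itself widens gaps and breaks runs. The median score was 5.55 for peaks in runs and 5.32 for single peaks. It was 6.5 in groups of 2 or 3 peaks and 7.075 in groups of 4 or 5. Peaks in runs were met by both replicate lists in 29 of 94 cases (30.9%), and those outside in 90 of 362 (24.9%). The runs from 9428600 and from 10605878 supplied 11 and 6 of those 29.

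The runs differed widely in replicate support. The one with the most peaks had 13, from 6082287 to 6094586, with scores of 2.41 to 8.76, and 0 of them were met by both lists, 3 by replicate 1 only and 10 by neither. The second, 12 peaks from 6219961 to 6230829, had 1 in both and 5 in neither, and a highest score of 26.7. By contrast, the 11 peaks from 9428600 to 9434786 were all met by both lists, with scores of 1.88 to 14.98 and 73.3% of the 6.19 kb covered. All 6 peaks from 10605878 to 10612424 were met by both lists too. In both runs the same replicate score recurred at neighbouring series peaks, so these are not 11 and 6 separate matches. Replicate 1 scored 551 at those from 9428600 to 9430618 and 467 at those from 9431437 to 9434092. In the run from 10605878, replicate 2 scored 214 at all 6. The fourth run by number, 8 peaks from 11817470 to 11825888, was mixed, with 3 in both. A pair of runs had 7 peaks each. The longer, from 15659708 to 15666874, had 4 in replicate 2 only and 3 in neither, and the other, from 14586486 to 14591003, had 4 in replicate 1 only and 3 in neither. Of the 12 runs, 5 had no peak in both lists.

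**Figure D4:**
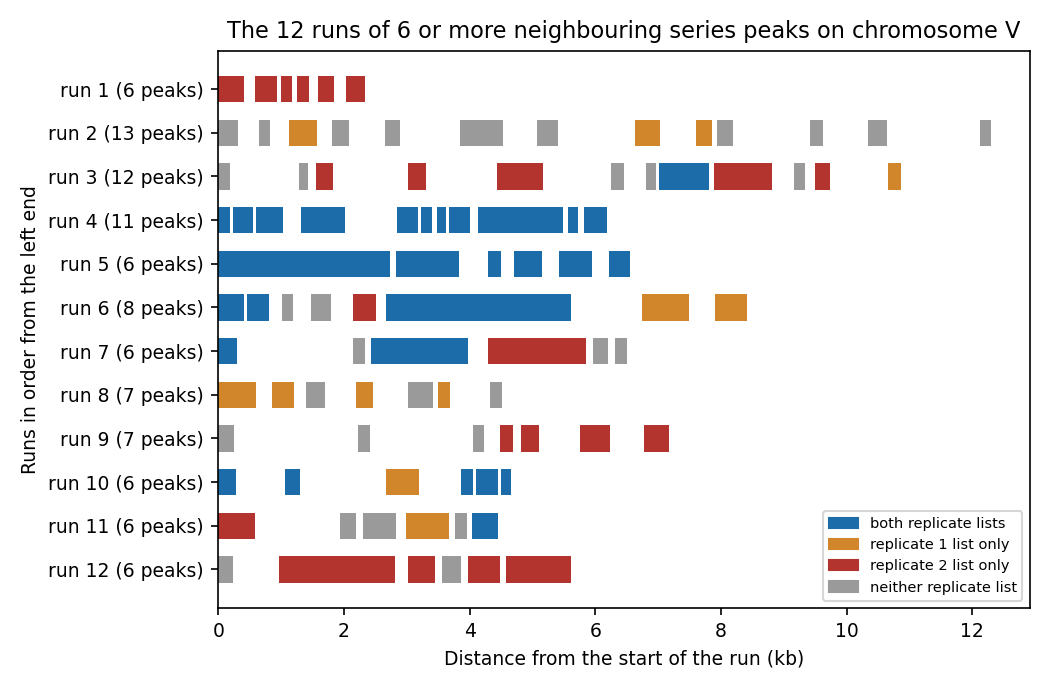
The 12 runs of 6 or more neighbouring series peaks on chromosome V in order from the left end, each drawn from its own start (horizontal axis, kb), with each bar 1 peak to scale and coloured by which replicate lists meet it. Runs 4 and 5, of 11 and 6 peaks, are wholly blue (both lists), while run 1 is wholly red (replicate 2 only).

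The first and the last series peak differed in replicate support. The first peak ran from position 1 to 335 with a score of 16.5 (rank 71) and was met by both lists, where it scored 456 and 697. The last, from 20923847 to 20924180, scored 7.24 (rank 182) and was met by neither. The end of this peak itself sets the span used here, so a peak at the right end follows by construction, and whether it runs past the end of the chromosome sequence was not checked. Of 10 bins of equal length along the chromosome, the last held 30 series peaks, of which 1 was met by both lists, and the first also held 30, of which 7 were. Bins 5 and 6, at the centre, held 72 and 68 series peaks, with 23 and 20 in both.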

How the data were processed

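Per the labels' protocols, frozen and ground worms were cross-linked with EGS for 20 minutes and for 10 more in EGS with formaldehyde, then sonicated. The submitters' processing notes name BWA and ce10. Per the file headers, coordinates are in WormBase WS220, and the authors' files name the caller as MACS for the replicate lists and MACS v2 for the series list. Details not given in the sources used here include versions, settings, read filters and the use of inputs. The score of each peak is the authors' deposited value, on an unstated scale.

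Groups follow the sample titles, and whether replicates came from separate cultures is not stated. Positions, gaps, runs, widths, ranks and overlaps (at least 1 bp) were computed with Python 3.11.15, pandas 2.3.3 and scipy 1.17.1. Midpoints assigned peaks to 3 segments or 10 bins of equal length and to 1 Mb blocks (a last block under 500 kb joins its neighbour). Intervals are exact (Clopper-Pearson or Poisson, 95%). The functions were tested on simulated peaks. Named sites were the 10 highest scores, 5 widest peaks, 5 largest runs, 5 widest gaps, both ends, the 5 highest scores in neither list, the 3 highest replicate peaks outside the series list, and the 3 fullest and 3 emptiest blocks. The peaks, rules and comparisons were chosen with earlier results of these data known. A gene table of another build (WBcel235) was not used, so no genes or sequences are given.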

Additional observations from a re-analysis of the deposited data

How the results depend on the processing

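Alternatives were set against the 95% interval of each value (counting error only; for the score difference, the interval of the median in both lists minus the fixed median of the others), and 21 of the 48 alternative values stayed inside it. No cause was tested except where a setting itself removes peaks or joins them. The chromosome V share of peaks (20.8%) was 24.7% to 25.03% with each replicate list alone, 22.6% in the higher-scoring 50%, 24.2% in peaks met by both lists, 19.1% with gaps under 2 kb merged and 22.9% by base pairs covered. The ratio of central to outer density (1.60) was 1.32 to 1.76 with each replicate list alone and 2 for the middle 50% of the chromosome. In peaks met by both lists, not all of them separate matches, it was 2.18. It stayed above 1 in all 10 alternatives, and the left to right ratio (1.01) stayed between 0.915 and 1.18. Without the block from 8 to 9 Mb, a setting added after seeing the data, the middle ratio was 1.61, with 1.53 in replicate 1 and 1.67 in replicate 2. As that block was chosen for the difference between the replicates, its removal brings these ratios together by construction. The median gap (1698 bp) was 2047 to 2729 bp with each replicate alone, 15187 bp in the higher-scoring 50%, 32733 bp in peaks of both lists and 63048 bp merged. The run share (20.6%) was 12.4% to 20.4% with each replicate alone, 0% in the higher-scoring 50%, 14.3% in peaks of both lists, 12.3% with gaps under 1 kb and 35.1% for runs of 4 or more. The median width (314.5 bp) was 293 to 429 bp with each replicate alone, 581.5 bp in the higher-scoring 50% and 715 bp in peaks of both lists. The share in both lists (26.1%) fell to 9.43% where an overlap had to span 50% of both peaks and 12.5% for midpoints within 200 bp, and was 43.9% in the higher-scoring 50%. The replicate 1 peaks met by replicate 2 (61.5%) were 35.8% and 41.2% under those overlap rules. The difference of median scores (9) was 14.9 with the 50% overlap. No paired analysis was possible because only ChIP samples entered any comparison. With depth unknown, a missing peak says little.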

Other observations

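Some sites on chromosome V were called in both replicates but not in the series list. Of the 28 replicate 1 peaks outside the series list, 10 overlapped a replicate 2 peak, and of the 22 such replicate 2 peaks, 8 overlapped a replicate 1 peak. The 3 highest-scoring of each list were the same 3 places in the right segment. They lay at 18566384 to 18566625 in replicate 1 (score 151.4; 174.3 in replicate 2), at 19528578 to 19528769 (198.8; 147.2) and at 18639721 to 18639855 (130.6; 138). All were narrow, 135 to 242 bp in replicate 1. The second of them lay inside the longest gap of the series list. Outside both other lists stood 18 replicate 1 peaks, with scores of at most 120.9, and 14 replicate 2 peaks, with scores of at most 106.9.

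Neighbouring series peaks often had the same replicate support. Of the 233 neighbour pairs under 2 kb apart, 128 had the same call (54.9%), and of the 222 pairs farther apart, 93 did (41.9%). These counts are for chromosome V alone, so they do not set it apart from the other chromosomes. A single wide replicate peak can meet several close series peaks, as the repeated scores within runs show. How much of the likeness this accounts for was not tested. The longest stretches of like calls were the run of 11 peaks in both lists from 9428600 and 10 peaks in neither list from 17981701 to 18170413. A further 10 in both lists ran from 7913013 to 7991260.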
